A study of Mus musculus with 12 samples.

Results

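The genes described here are the amyloid precursor protein gene App and its relatives Aplp1 and Aplp2, the secretase genes Bace1, Adam10, Psen2, Psenen, Ncstn and Aph1a, and the prion protein gene Prnp. Members were chosen by gene name, with earlier results of these data known, and comprised every non-control probe of the arrays whose RefSeq identifier belongs to 1 of these 10 genes. They were measured by 12 of the 55681 probes, and by 10 of the 20887 genes that could be named. Psenen and Aph1a had 2 probes each, numbered 1 and 2 here, App had 1 probe printed in 2 spots and Prnp 1 probe printed in 10 spots, and the other 6 genes had 1 probe in 1 spot.

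Neurospheres, aggregates of neural progenitor cells, were grown from the telencephalon of C57BL/6 mouse embryos at embryonic day 13 and differentiated for 7 days after withdrawal of growth factors. WT neurospheres came from wild-type embryos. APP_WT, BK_APP and HOE_APP neurospheres all came from APPswe/PS1dE9 embryos, which carry a chimeric mouse/human APP695 gene with the Swedish mutation and a further human transgene, both meant to be expressed in neurons of the central nervous system. APP_WT received no drug, BK_APP received 1 µM bradykinin (BK) and HOE_APP 1 µM HOE-140, each on days 0, 3 and 6 of differentiation. WT cells had no drug arm, so that both treatments were measured in the transgenic background only. APP_WT was set against WT, and BK_APP and HOE_APP were each set against APP_WT. Each of these 3 comparisons had 4 arrays with 2 colours, the dyes being swapped on 2 of them, and an array held 1 replicate of both conditions. The labels of the HOE_APP arrays repeat one treatment for both channels, and the direction given for HOE_APP is therefore likely only.

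APP is a membrane protein that is cut in alternative ways. ADAM10, the main alpha-secretase of neurons, sheds its ectodomain within the amyloid-beta sequence, whereas BACE1, the beta-secretase, cuts at the start of that sequence. The remaining stub is cut within the membrane by gamma-secretase, a complex of a presenilin (the catalytic subunit, such as that encoded by Psen2), nicastrin (Ncstn), an APH-1 protein (Aph1a) and PEN-2 (Psenen). APLP1 and APLP2 are cut by the same enzymes but contain no amyloid-beta sequence. The cellular prion protein is a lipid-anchored surface protein of neurons and other cells that is known to bind amyloid-beta oligomers. In the APPswe/PS1dE9 line both transgenes are driven by the mouse prion protein promoter.

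The transcription start regions of Prnp, whose promoter drives the transgenes, of App, which is the transgene's mouse counterpart, and of the other members that differed from WT are shown here. They span 250 bases before to 50 bases after the start (RefSeq, GRCm38.p6, 5′ to 3′ along the gene), and capitals mark GGGCGG or its complement CCGCCC, the core of a GC box, counted on both strands.
Prnp (chr2:131909678-131909977, plus strand): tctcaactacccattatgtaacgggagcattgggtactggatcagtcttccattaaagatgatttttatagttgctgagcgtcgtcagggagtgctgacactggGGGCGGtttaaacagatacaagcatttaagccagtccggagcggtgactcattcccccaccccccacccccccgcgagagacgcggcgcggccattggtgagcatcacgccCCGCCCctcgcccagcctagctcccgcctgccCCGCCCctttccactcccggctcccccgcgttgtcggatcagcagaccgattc
App (chr16:85173658-85173957, minus strand): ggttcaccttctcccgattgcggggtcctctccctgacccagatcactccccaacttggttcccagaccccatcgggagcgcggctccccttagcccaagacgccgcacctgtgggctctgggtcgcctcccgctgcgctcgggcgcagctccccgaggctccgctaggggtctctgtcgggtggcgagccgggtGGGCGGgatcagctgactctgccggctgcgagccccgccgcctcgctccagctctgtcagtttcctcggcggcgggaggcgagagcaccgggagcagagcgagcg
Aplp2 (chr9:31211799-31212098, minus strand): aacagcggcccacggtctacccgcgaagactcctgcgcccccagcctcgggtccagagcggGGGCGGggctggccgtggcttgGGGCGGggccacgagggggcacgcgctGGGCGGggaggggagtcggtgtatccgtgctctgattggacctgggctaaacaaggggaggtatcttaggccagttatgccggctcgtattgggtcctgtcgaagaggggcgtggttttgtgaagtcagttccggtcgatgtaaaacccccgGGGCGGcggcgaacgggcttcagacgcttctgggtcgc
Psen2, first of its start sites in the table (chr1:180256251-180256550, minus strand): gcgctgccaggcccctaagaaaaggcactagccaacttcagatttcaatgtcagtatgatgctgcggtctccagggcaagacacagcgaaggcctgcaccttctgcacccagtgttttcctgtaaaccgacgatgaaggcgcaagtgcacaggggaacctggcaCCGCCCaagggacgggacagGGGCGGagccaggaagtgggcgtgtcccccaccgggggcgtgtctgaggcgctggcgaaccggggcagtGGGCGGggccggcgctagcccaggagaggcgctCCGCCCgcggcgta
The Prnp window held the motif 3 times, that of App once, and those of Aplp2 and of the first Psen2 start 4 times each, with overlapping copies counted and no other motif searched. The window of the second Psen2 start, not printed here, held no copy and had a GC content of 47.7%. Of the members, 9 had an entry in the promoter table, with 11 windows for them, and 7 of the 11 windows (63.6%) held the motif, against 35.7% of all 32851 windows. The GC content of the members' windows lay between 47.7% and 73.3%, with a median of 52.7% over all windows. These matches are a description of the letters in the windows, and Bace1 had no entry.

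All 12 probes passed the filter on dim probes, which kept 29361 probes detected well above background, for 1 of the conditions, on 3 or 4 arrays of any comparison. Levels are given as normalized log2 intensities and differences as log2 ratios of the first-named over the second-named condition. A level can be compared between conditions for 1 probe, but not between probes. Ncstn was close to the detection limit and passed through the HOE_APP arrays alone, whereas the other probes were well above background on 3 or 4 arrays in every condition. Of the 264 member spots over the 12 arrays, none was saturated and 1 was uneven and left out. Between 48.1% and 56% of spots were well above background on an array. The arrays of APP_WT versus WT lay on 1 slide and those of both treatments on another, so that slide and comparison cannot be told apart. A ratio compares 2 samples of the same array.

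The culture type was checked with marker genes. All 8 neuronal and all 6 astrocyte markers on the lists used passed the filter, as did 10 of 11 microglial markers. Between APP_WT and WT, 9 of the 10 microglial, 5 of the 6 astrocyte and all 3 ependymal markers were higher in APP_WT. The median log2 ratio over all markers of the list that passed the filter was 1.17, 0.37 and 1.15. Of the astrocyte markers 2 were higher with median centring and 4 without replicate 3 of all comparisons. With this comparison fitted by itself with a dye term, 4 astrocyte and 8 microglial markers were higher. Of the neuronal markers, 1 was higher and 3 were lower. Of 5 progenitor markers Vim (0.97) and Nes (0.55) were higher and Pax6 (-0.16) lower, and Olig2 of the oligodendrocyte lineage (-0.21) and the pericyte marker Pdgfrb (-0.45) were lower. Without replicate 3 of all comparisons 1 progenitor marker was higher and none of the progenitor or oligodendrocyte markers was lower, with the same counts when this comparison was fitted by itself with a dye term. The neuronal markers then had 0 higher and 3 lower without replicate 3, and 1 higher and 2 lower in the separate fit. With median centring 4 neuronal, 3 progenitor and 2 oligodendrocyte markers were lower. The summed level of the microglial markers lay between 13.66 and 14.02 in APP_WT and between 13.21 and 13.51 in WT, and each of the markers that passed was above background on at least 1 array of either condition. The summed neuronal level lay between 16.39 and 16.59 in APP_WT and between 16.51 and 16.75 in WT. No marker of these lists was called after either treatment, and neither was any other probe. The microglial markers that passed lay between -0.084 and 0.32 after BK and between -0.18 and -0.0072 after HOE-140. The neuronal markers lay between -0.17 and -0.044 after BK and between -0.071 and 0.12 after HOE-140. The part of cell composition in the differences described next was not tested, and in these bulk cultures fewer cells of a type and less RNA per cell cannot be told apart.

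The first question was whether the transgenic neurospheres differed from WT. Prnp, Psen2 and Aplp2 were higher in APP_WT (3 of 12 probes, 25%, at an adjusted p below 0.05 in a moderated limma test), no member was lower, and 9 probes did not pass. Over all probes that passed the filter 18.5% were called, 11.6% higher and 7% lower, so that the members' share was near the background. That split depends on the scaling, since 62.3% of all calls were higher here, against 34.3% with the scanner software's own normalization, 36.4% with median centring and 32.6% in the log2 table deposited by the authors. The median log2 ratio of the members was 0.10, against 0.0039 over all probes, and it was -0.045 with median centring. That setting moved the median of the 1620 probes about as bright as Prnp or brighter from 0.019 to -0.17. At an unadjusted p of 0.05 or lower there were 5 member probes, with 31.8% of all probes at that level, and 4 member probes had the same sign on all 4 arrays, as did 26.9% of all probes.

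**Figure D1:**
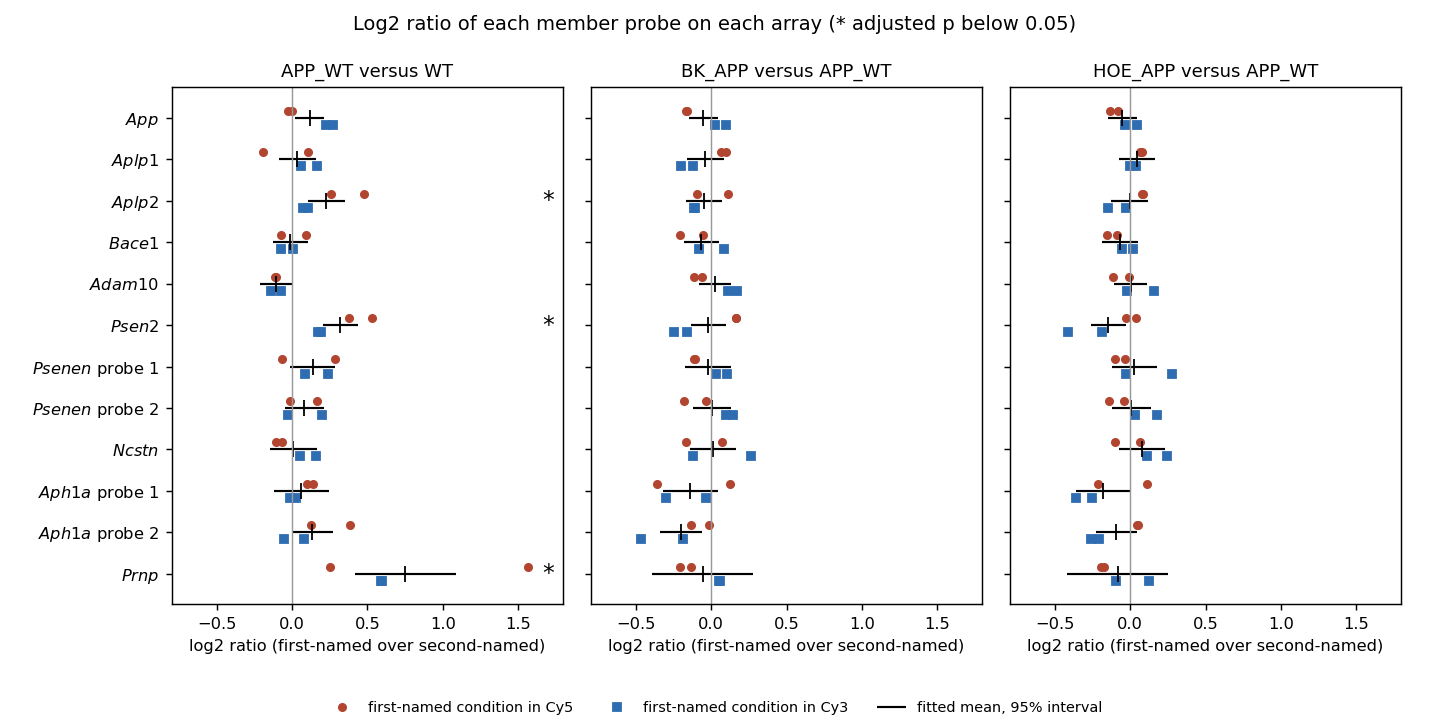
Log2 ratio of each member probe on each array (points, coloured and shaped by the dye of the first-named condition), with the fitted mean and its 95% interval (black), in the 3 comparisons. Prnp, Psen2 and Aplp2 lie above 0 on all 4 arrays of APP_WT versus WT and carry a star, and in both treatment comparisons the points of the 2 dye orientations often fall on opposite sides of 0.

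In the substrate family, App was at 13.60 ± 0.10 in APP_WT and 13.49 ± 0.06 in WT (normalized log2 intensity, SD, n = 4 arrays). Its log2 ratios were 0.23 and 0.27 on the arrays with APP_WT in Cy3 and 0.00039 and -0.030 on those with APP_WT in Cy5. The mean ratio was 0.25 in the first orientation and -0.015 in the second, and the levels of both conditions overlapped. The fitted log2 fold change was 0.12 (95% interval 0.020 to 0.21) and did not pass the test (limma, adjusted p = 0.0925). With the log2 table of the authors in place of the scanner signals it was 0.13 and passed (limma, adjusted p = 0.0481), and with median centring its sign turned (-0.062). The probe is listed under a mouse App transcript, and its sequence was not used here, so that whether it also detects RNA of the chimeric transgene was not tested.

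Aplp2, a ubiquitously expressed APP relative, had log2 ratios of 0.074, 0.11, 0.47 and 0.26 on the arrays of replicates 1 to 4. All 4 were above 0, and the 2 arrays with APP_WT in Cy5 had the larger values. The level was 13.31 ± 0.08 in APP_WT and 13.08 ± 0.11 in WT (SD, n = 4), the lowest APP_WT value (13.21) meeting the highest WT value (13.21). The log2 fold change was 0.23 with an SE of 0.055 (1.17-fold, limma, adjusted p = 0.0148). Without replicate 3 of this comparison it was 0.17 and no longer passed (adjusted p = 0.101), without replicate 2 it was 0.22 (adjusted p = 0.0628), and with median centring it was 0.055 (adjusted p = 0.652). With this comparison fitted by itself Aplp2 had an adjusted p of 0.216 without and 0.104 with a dye term (limma). Aplp1, the neuronal member of the family, was at 13.34 ± 0.01 in APP_WT and 13.30 ± 0.16 in WT, with a log2 fold change of 0.036 (95% interval -0.086 to 0.16, limma, adjusted p = 0.705).

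The enzymes that make the first cut did not pass the test. Bace1 was at 11.23 ± 0.13 in APP_WT and 11.25 ± 0.07 in WT, with array ratios between -0.076 and 0.095 and a fitted value of -0.011 (95% interval -0.13 to 0.11, limma, adjusted p = 0.911). Adam10, by contrast, had ratios between -0.14 and -0.070, the smallest spread of the members in this comparison. Its ratio was below 0 on all 4 arrays and in both dye orientations, and its levels (11.51 to 11.58 in APP_WT, 11.58 to 11.72 in WT) did not overlap. The fitted value of -0.11 (95% interval -0.22 to -0.00042) nevertheless had an adjusted p of 0.156 (limma). Levels did not overlap for 2 of the 12 member probes, Adam10 and Prnp, and for 10.8% of all probes. With median centring Adam10 was at -0.26 and passed (limma, adjusted p = 0.0283).

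Among the gamma-secretase genes, Psen2 was higher in APP_WT. Its log2 ratios on replicates 1 to 4 were 0.19, 0.17, 0.53 and 0.38, and the arrays with APP_WT in Cy5 again had the larger values. The level was 10.24 ± 0.11 in APP_WT and 9.92 ± 0.22 in WT (SD, n = 4), and the ranges overlapped (10.08 to 10.30 against 9.70 to 10.13). The log2 fold change was 0.32 with an SE of 0.052 (1.25-fold, 95% interval 0.20 to 0.43, limma, adjusted p = 0.00173). With this comparison fitted by itself the adjusted p was 0.0344 with and 0.0799 without a dye term (limma), and with median centring the value was 0.19 (adjusted p = 0.095).

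The other subunits of the complex did not pass. Psenen was at 12.30 ± 0.14 in APP_WT and 12.17 ± 0.11 in WT by probe 1 and at 12.63 ± 0.11 and 12.55 ± 0.10 by probe 2, with log2 fold changes of 0.14 and 0.080 (limma, adjusted p = 0.201 and 0.382). The probes of Aph1a gave 0.062 and 0.13 (adjusted p = 0.657 and 0.166), with levels of 10.72 ± 0.14 against 10.66 ± 0.20 and of 7.45 ± 0.18 against 7.31 ± 0.14. The Aph1a probes are listed under different transcripts of the gene. For both genes the 2 probes had the same sign. Ncstn was well above background on 1 of 4 arrays in APP_WT and on 1 of 4 in WT, and its level (6.57 ± 0.04 against 6.56 ± 0.16) is close to a floor, so that its fitted value of 0.0091 carries little information.

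Prnp showed the largest difference of the members. Its log2 ratios on replicates 1 to 4 of APP_WT versus WT were 0.59, 0.59, 1.57 and 0.25. All were above 0, in both dye orientations, and the highest and the lowest came from arrays of the same orientation. The level was 14.24 ± 0.47 in APP_WT and 13.49 ± 0.11 in WT (SD, n = 4), and the lowest APP_WT value (13.87) exceeded the highest WT value (13.61). The log2 fold change was 0.75 with an SE of 0.15 (1.68-fold, 95% interval 0.42 to 1.08, limma, adjusted p = 0.00581). With this comparison fitted by itself, on its own spread, the same value had an adjusted p of 0.0619 without and 0.0753 with a dye term.

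The 10 spots of the Prnp probe show the technical spread within an array, which leaves out differences in labelling, dye and hybridization between arrays. Within an array of APP_WT versus WT the SD over the spots was 0.044 to 0.084, while the SD between the 4 arrays was 0.57. On the array of replicate 3 the spots ranged from 1.43 to 1.65, and on that of replicate 4 from 0.18 to 0.33. The spots of these arrays did not overlap with each other or with those of replicates 1 and 2.

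**Figure D2:**
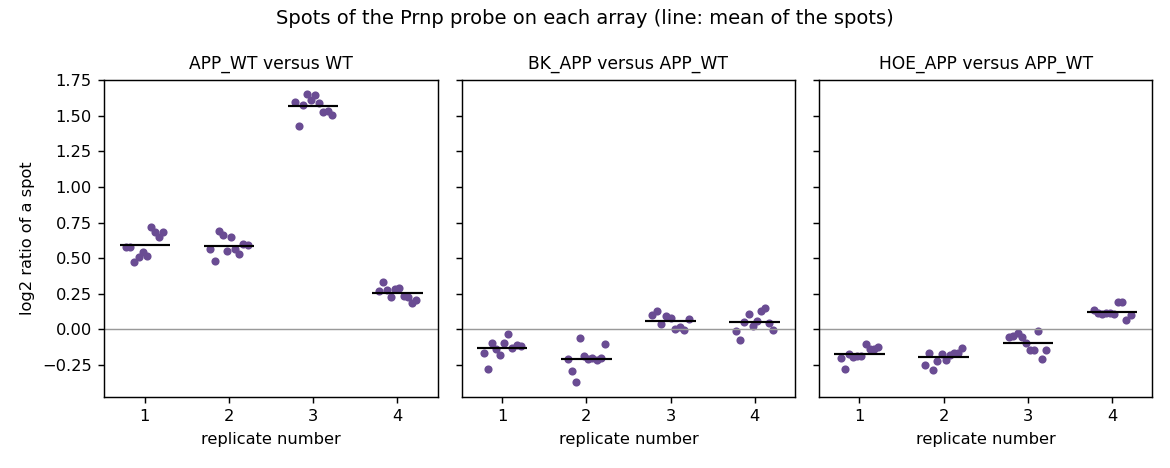
Log2 ratio of each spot of the Prnp probe on each array (points) and their mean (line), by replicate number, in the 3 comparisons. The spots of APP_WT versus WT form tight groups that differ between replicates, with replicate 3 at 1.57, replicates 1 and 2 at 0.59 and replicate 4 at 0.25.

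The high value of replicate 3 came from the transgenic channel and returned on other arrays. APP_WT of replicate 3 was at 14.92 on the array with WT, 15.04 on the array with BK_APP and 15.00 on the array with HOE_APP, whereas the other 9 APP_WT values lay between 13.87 and 14.17. BK_APP of replicate 3 was at 15.10, with the other BK_APP replicates between 13.93 and 13.99, and HOE_APP of replicate 3 was at 14.91, with the others between 13.96 and 14.08. WT of replicate 3, at 13.35, was the lowest of the WT values, the others lying between 13.48 and 13.61. Replicate 3 thus exceeded the mean of the other replicates by 0.93 in APP_WT, 1.14 in BK_APP and 0.90 in HOE_APP, and was 0.18 below it in WT (a log2 difference of -0.18). No other member had APP_WT values of replicate 3 above those of all other replicates, and the corresponding difference of the other 11 probes lay between -0.18 and 0.11. The 3 APP_WT values of one replicate number differed by 0.083 on average for Prnp. The SD of its replicate means was 0.48, against a median of 0.12 over all probes, and 1.03% of probes had a larger one. This pattern was singled out after its values were seen. Which embryos a replicate number stands for is not given in the sources used here. The Prnp probe sequence was not used, so that whether the probe also sees transgene RNA was not tested. Without replicate 3 in all comparisons the Prnp log2 fold change in APP_WT versus WT was 0.42 and still passed (adjusted p = 0.00477). Without replicate 4 of this comparison it was 1.08.

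**Figure D3:**
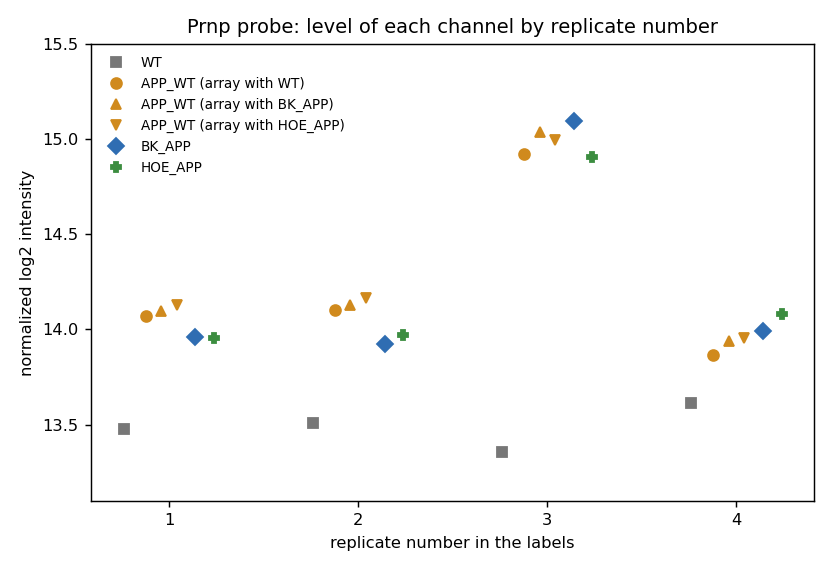
Normalized log2 intensity of the Prnp probe in each channel, by the replicate number in the labels. Every transgenic sample of replicate 3 lies between 14.91 and 15.10 and every other transgenic sample between 13.87 and 14.17, with the 4 WT samples between 13.35 and 13.61.

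Beyond the members, 47 other genes of APP processing and prion biology were listed, of which 45 had a probe that passed the filter. For the rest no probe was found by RefSeq accession. In APP_WT versus WT, 13 of the 45 were higher and 2 lower (33.3% called, against 18.5% of all probes), with a median log2 ratio of 0.097. The split depends on the scaling. With median centring 6 were higher and 6 lower (26.7% called, against 20% of all probes), and with the scanner software's normalization 9 and 6 (33.3%, against 26.7%). By the log2 values of the authors, which cover 43 of the genes, 11 were higher and 7 lower (41.9%, against 31%). Among the genes called, the largest increases were those of Ctsb, a lysosomal cysteine protease able to degrade amyloid-beta (0.96, 1.95-fold, limma, adjusted p = 2.1e-06), and Clu, which encodes the extracellular chaperone clusterin (0.90, 1.86-fold, adjusted p = 3.66e-07). They were followed by Bace2, the BACE1 homologue (0.64, adjusted p = 0.000604), Itm2c (0.63, adjusted p = 1.77e-05), the lipid carrier gene Apoe (0.59, adjusted p = 2.04e-05) and Itm2b (0.41, adjusted p = 0.0012). The products of Itm2c and Itm2b bind APP and limit its processing. Each of these 6 genes was above 0 on all 4 arrays. Itm2b did not pass with median centring. Aph1b, another APH-1 subunit, was at -0.20 (adjusted p = 0.0479) with 1 of 4 arrays above 0, and Tspan14, a tetraspanin that accompanies ADAM10, at -0.16 (adjusted p = 0.0368) with all 4 arrays below 0.

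By group, 4 of 8 genes for clearance and chaperones of amyloid-beta rose (50% called, against 18.5% of all probes). Of the 7 partners and activating convertases of ADAM10, 4 rose and 1 fell (71.4%). In the clearance group 3 genes were higher with median centring, with the scanner software's normalization, in both separate fits and without replicate 3. Of the ADAM10 group, only Tspan15 was called without replicate 3 and in both separate fits. With median centring 1 gene of that group was higher and 3 were lower. Of the 14 trafficking genes and modulators of APP and BACE1, 3 rose (21.4%, near the 18.5% of all probes). With the scanner software's normalization 2 of the 14 were higher and 2 lower, with median centring 1 and 2, and by the authors' log2 values 3 and 3. Of the 4 other secretase genes measured Bace2 rose and Aph1b fell (50%, against 18.5% of all probes). None of the 8 APP adaptors passed, and 1 of 4 relatives and partners of the prion protein rose (25%, against 18.5% of all probes). That call was absent with the scanner software's normalization, with median centring and by the authors' log2 values. It was also absent in both separate fits and without replicate 3. Without replicate 3 of this comparison 8 of the 45 genes were called (17.8%, against 13.4% of all probes in that fit), and without replicate 3 of all comparisons 7 (15.6%, against 12%). The 6 genes named as higher were among the latter, and Aph1b and Tspan14 were not. Apoe, Clu and Ctsb are also abundant in astrocytes or microglia, whose marker lists rose in the same comparison (5 of 6 and 9 of 10 genes that passed the filter), and the part of these cells in the result was not tested.

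**Figure D4:**
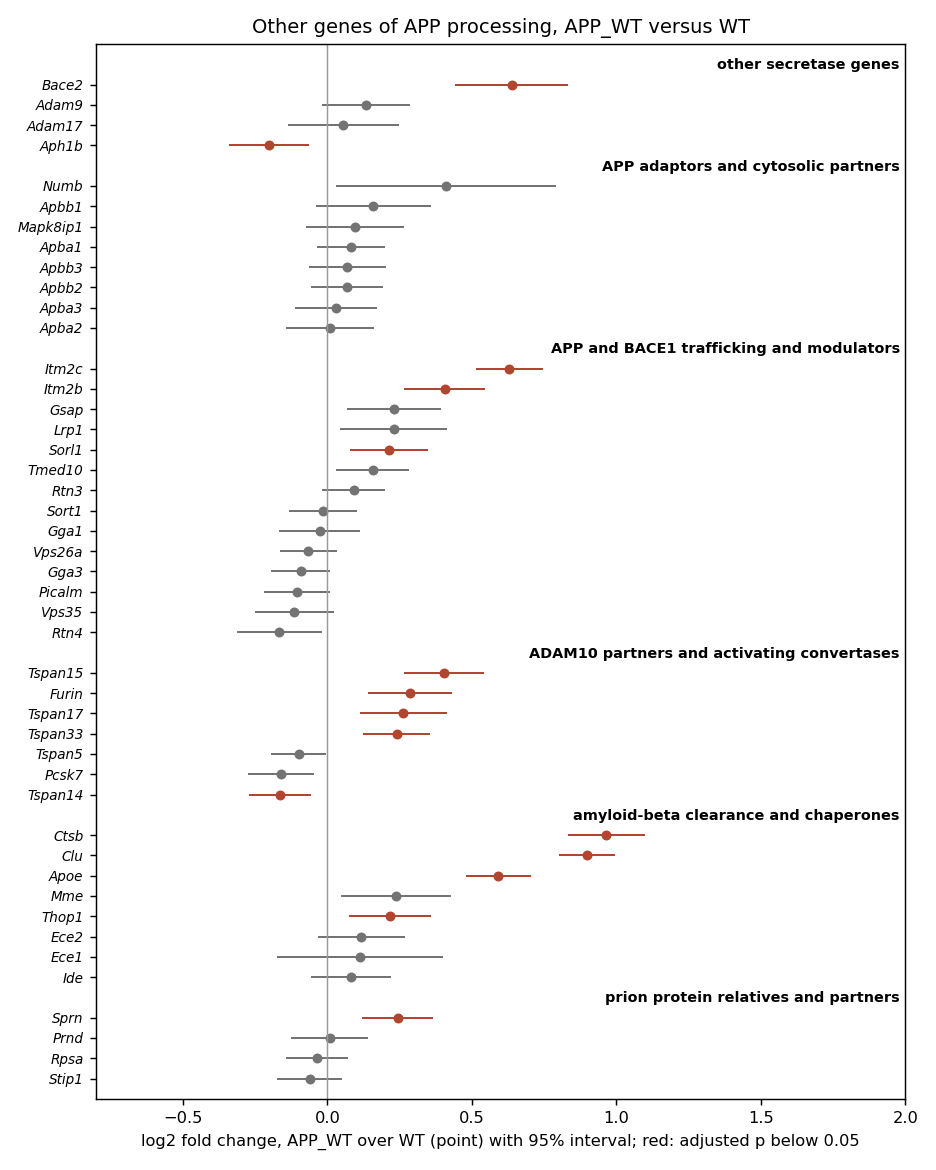
Log2 fold change (point) with its 95% interval for the 45 measured genes of the fixed list, grouped by role, in APP_WT versus WT, with genes past the adjusted threshold in red. Ctsb (0.96) and Clu (0.90) lie farthest to the right, and the adaptor genes are all grey.

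The second question was whether BK, a peptide agonist of the B2 kinin receptor, changed the members in transgenic neurospheres. No member was called in BK_APP versus APP_WT (0 of 12, limma, adjusted p between 0.967 and 0.997), nor was any of the 29361 probes (0%). Across probes, the log2 ratios of arrays with opposite dye orientation correlated at r of -0.323 to -0.114. Those of the same orientation correlated at 0.244 to 0.283. In APP_WT versus WT the r of opposite orientations was 0.243 to 0.463. The arrays after BK thus grouped by dye, and the lack of calls does not show a lack of effect. At an unadjusted p of 0.05 or lower 1 member probe was found, against 4.47% of all probes. This was probe 2 of Aph1a, with ratios between -0.47 and -0.014 and a fitted value of -0.20 (95% interval -0.34 to -0.064). Its mean ratio was -0.072 with BK_APP in Cy5 and -0.33 with BK_APP in Cy3. The signal was low, and BK_APP was well above background on 3 of 4 arrays. This probe was also the 1 member below or above 0 on all 4 arrays, a pattern found in 9.64% of all probes. No member had levels that did not overlap between BK_APP and APP_WT, against 0.807% of all probes. Probe 1 of the same gene gave -0.14 (95% interval -0.32 to 0.043), with 1 of 4 arrays above 0. App had ratios of -0.17 and -0.16 with BK_APP in Cy5 and of 0.096 and 0.024 with BK_APP in Cy3, and a fitted value of -0.052 (95% interval -0.15 to 0.045). Psen2 had ratios of 0.16 and 0.16 with BK_APP in Cy5 and of -0.25 and -0.16 with BK_APP in Cy3. The sign of both genes thus followed the dye. Over the members the median size of the dye coefficient was 0.11, against 0.070 over all probes, and that of the fitted change 0.044, against 0.048.

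HOE-140 is a peptide analogue of bradykinin with non-natural residues that blocks the B2 receptor. In HOE_APP versus APP_WT 0 of 12 member probes and 0% of all probes were called (limma, adjusted p of the members between 0.924 and 0.996), with 1 member probe and 5.03% of all probes at an unadjusted p of 0.05 or lower. The member was Psen2, with ratios of 0.037, -0.025, -0.19 and -0.41 and a fitted value of -0.15 (95% interval -0.26 to -0.031). Its mean ratio was 0.0059 with HOE_APP in Cy5 and -0.30 with HOE_APP in Cy3. No member had the same sign on all 4 arrays, against 10.6% of all probes, and none had levels that did not overlap, against 0.943%. Across probes, arrays of opposite dye orientation correlated at r of -0.321 to -0.191 and those of the same orientation at 0.338 to 0.426. Here too the lack of calls does not show a lack of effect. Probe 1 of Aph1a was at -0.18 (95% interval -0.36 to 0.0042). App was at -0.054 (95% interval -0.15 to 0.043), Bace1 at -0.070 (-0.19 to 0.048) and Adam10 at 0.0030 (-0.10 to 0.11). Prnp was at -0.083 (-0.42 to 0.25) after HOE-140 and at -0.057 (-0.39 to 0.28) after BK. The 95% intervals of all members lay between -0.39 and 0.28 for BK and between -0.42 and 0.25 for HOE-140. Of the 45 listed pathway genes, none was called after either treatment. Both comparisons have APP_WT in common.

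The third question was whether the agonist and the antagonist, given at the same dose and on the same days, differed from each other. This was 1 pair of compounds, compared over 12 probes with p-values adjusted over all 29361. None of the members was called (limma contrast, adjusted p = 1 for each), with 0 at an unadjusted p of 0.05 or lower and 2.5% of all probes at that level. With the direction of HOE_APP as given, the log2 differences (BK_APP minus HOE_APP) lay between -0.11 for probe 2 of Aph1a and 0.13 for Psen2, and the 95% intervals between -0.45 and 0.50. The outer bounds were those of Prnp, whose spread in the shared model includes replicate 3 of APP_WT versus WT. BK_APP and HOE_APP arrays of the same replicate number have the same dye orientation, and their difference was therefore also tested in pairs. For Prnp the 4 paired differences were 0.039, -0.0099, 0.15 and -0.077, with a mean of 0.026 and a 95% interval of -0.11 to 0.16. For App they were -0.085, -0.024, 0.054 and 0.061, with a mean of 0.0014 (95% interval -0.12 to 0.13). For Psen2 the mean was 0.13 (95% interval -0.022 to 0.28), with 3 of 4 pairs above 0. Paired, no member and no other probe was called (limma, adjusted p of the members between 0.676 and 0.998), with 0 members and 7.86% of all probes at an unadjusted p of 0.05 or lower. These values do not show that the compounds act alike, and with the direction of HOE_APP as given the paired intervals of the members other than Ncstn, which was near background, lay between -0.26 and 0.28. With the sign of HOE_APP turned, the unpaired differences of the same members lay between -0.32 for probe 1 of Aph1a (95% interval -0.58 to -0.060) and 0.029 for Adam10. Probe 2 of Aph1a was then at -0.29 (-0.49 to -0.099) and Psen2 at -0.17 (-0.33 to -0.0032). No member was called with the sign turned either, and 3 were at an unadjusted p of 0.05 or lower, against 7.93% of all probes.

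**Figure D5:**
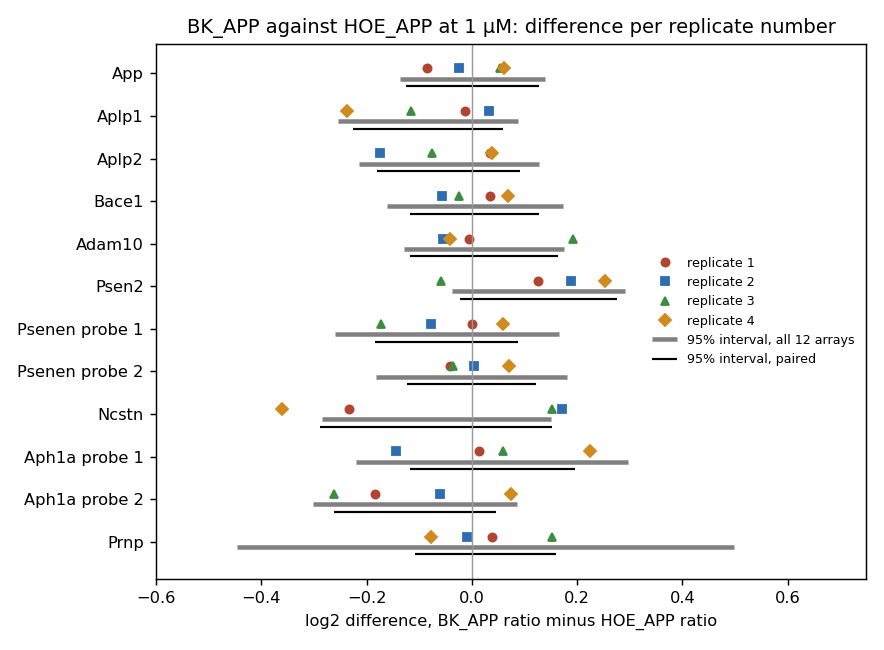
Log2 difference between the BK_APP and the HOE_APP ratio of the same replicate number for each member probe (points), with the 95% interval of the model over all 12 arrays (grey) and of the 4 paired differences (black). With the direction of HOE_APP as given all intervals contain 0, and pairing narrows that of Prnp from -0.45 to 0.50 down to -0.11 to 0.16.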

How the data were processed

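The authors deposited scanner output of 12 Agilent arrays, with median intensity per spot and local background in Cy3 and Cy5, not normalized, and a log10 ratio of background-subtracted, dye-normalized signals (Feature Extraction 11.0.1.1). A log2 ratio table deposited by the authors, of 31882 rows, served as an alternative. Its columns correlated with the turned scanner ratios at 0.999 or above, with medians between -0.155 and 0.036.

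Median signals were background-corrected by normexp (offset 50) and normalized by loess (span 0.3) with weight 0 for control and uneven spots in limma 3.58.1 (R 4.3.3). Of 62976 spots, 3671 were controls and were removed together with uneven ones, and replicate spots of a probe were averaged. Ratios were turned to first-named over second-named condition. Gene names came from a RefSeq table (27509 of 29150 probes with an accession matched), whose assembly differs from the one used for the arrays. One model over 12 arrays held a mean and a dye coefficient per comparison (6 residual and 4.56 prior degrees of freedom), with Benjamini-Hochberg adjustment over all probes that passed the filter and two-sided tests. The spread is therefore shared between comparisons. Levels were set by quantile normalization of the mean intensity after loess. The methods' SAM and rank products were not repeated. The model was run on simulated ratios with independent noise and known changes in APP_WT versus WT alone. These were larger than any fitted change of a member after treatment, so that the run does not bear on small treatment effects. Precision is limited by 4 arrays per comparison, which the methods call independent biological replicates.

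With the direction of HOE_APP as given, same-numbered arrays of BK_APP and HOE_APP deviated together from their group means (r of 0.672, 0.555, 0.67 and 0.515), each more than any other number (0.309 at most). They were treated as pairs by these numbers in the labels. The lowest r between different numbers was -0.584. Turning the sign of HOE_APP turns the sign of every r, so that the ranking holds for the direction given only. Both comparisons share APP_WT, and the r due to that alone was not tested. Arrays of APP_WT versus WT have the opposite dye orientation and APP_WT on the other side of the ratio.

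All probes of the members were reported. One item of the list is not reported here. Of the other listed genes, those with an adjusted p below 0.05 were named, up to 6 in each direction by size, each with its brightest probe. Members and lists were chosen with earlier results of these data known. Alternatives were no background correction, the scanner's processed signals, median centring, the authors' table, other filters, separate fits, a replicate block, leaving out arrays, turning the sign of HOE_APP and an unadjusted threshold. Those on outlier spots, the median over spots, paired differences and the removal of replicate 3 were chosen after seeing the data. Figures were drawn with matplotlib 3.10.9.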

Additional observations from a re-analysis of the deposited data

Results flagged for a closer look

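One of the 36 sets of 4 log2 ratios (12 member probes in 3 comparisons) held an array far from the others. In BK_APP versus APP_WT, replicate 1 gave Aplp2 a log2 ratio of 0.115, whereas replicates 2 to 4 gave -0.094, -0.11 and -0.11. Its gap to the nearest array was 0.922 of the whole range. The limit used is one that chance passes in about 1 of 20 sets. The fitted value for Aplp2 in this comparison was -0.049 (95% interval -0.17 to 0.072).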

How the results depend on the processing

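In APP_WT versus WT, Prnp, Psen2 and Aplp2 were called in 62 of 72 values over the alternatives run, and the 9 member probes that did not pass in 2 of 215. Many of these alternatives change the error alone and leave the fold as it is, so that the sign of the fold is no check there. Fitting this comparison by itself left 1 member called with a dye term (Psen2) and 0 without, 7 of the pathway genes in both fits, and 2371 and 1834 of all probes, in place of 3, 15 and 5446. These fits have fewer arrays behind the spread. At an unadjusted p of 0.05 or lower 5 members were found in APP_WT versus WT, 1 in BK_APP versus APP_WT and 1 in HOE_APP versus APP_WT. Leaving out arrays gave between 2 and 3 members, 7 to 13 pathway genes and 3523 to 5550 probes called in APP_WT versus WT, the lowest count of probes without replicate 3 in all comparisons, and the cause was not tested. In both treatment comparisons and in their difference, no member reached an adjusted p below 0.05 under any alternative run, and leaving out arrays gave at most 62 calls over all probes after BK, 9 after HOE-140 and 13 for the difference. With the replicate block the counts of members called were 3 in APP_WT versus WT and 0 in the other comparisons, with 15 pathway genes and 5373 probes in APP_WT versus WT, and no call of a member changed. Turning the sign of HOE_APP left 0 members called. Ncstn had no row in the values taken from the authors' table.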
